A study of Mus musculus with 238 samples.

Results

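The transcripts followed here are those of the red blood cell lineage: the adult alpha-globin genes Hba-a1 and Hba-a2, the adult beta-globin genes Hbb-bs and Hbb-bt, and Alas2. They were picked by name, as 5 of the 21076 gene rows of the count table, and all 5 had a row. The study asked how an altered diet or an injection of plasma changes expression across the aged mouse brain. All mice were C57BL/6JN and 19 months old, and no transgene is named in the labels. Females were fed freely (AL, mice 63, 66, 68 and 69) or kept on dietary restriction (aDR, mice 61, 62, 64, 65 and 67, whose liver libraries carry the label DR). Males received retro-orbital injections of plasma from young mice (YMP, mice 73, 77 and 81) or of saline (PBS, mice 72, 76, 80 and 84). Each mouse gave up to 15 brain regions, and each female also a liver, taken to judge how well the restriction worked, for 131 brain libraries of the diet experiment, 98 of the plasma experiment and 9 from liver, with 2 to 5 libraries per tissue and treatment. Sex is the same as experiment, so the experiments are kept apart. The treatments within an experiment differ in nothing else that the labels name. Whether vessels were rinsed before dissection is not given in the sources used here.

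Haemoglobin is built from alpha and beta globin chains that each hold a haem group, and red cells carry it to transport oxygen. Young red cells, the reticulocytes, still hold globin mRNA after they lose the nucleus, so blood left in the vessels of a dissected tissue adds globin reads to its library. Low globin expression has also been described in neurons. Alas2 encodes the erythroid form of the enzyme that starts haem synthesis, whereas Alas1 serves the other tissues. In bulk libraries, fewer cells of a type and less RNA per cell cannot be told apart.

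The alpha genes lie on chromosome 11 of GRCm38 (GENCODE annotation), Hba-a1 at chr11:32283511-32284465 and Hba-a2 at chr11:32296489-32297298, both on the plus strand. The beta genes lie on the minus strand of chromosome 7, Hbb-bt at chr7:103812524-103813996 and Hbb-bs at chr7:103826534-103828096. Alas2 lies at chrX:150547375-150570638 on the plus strand. Each globin gene has 3 exons in its main transcript, and Alas2 has 11. The main transcripts of Hba-a1 and Hba-a2 were identical at 99.8% of 538 aligned bases, and 86.9% of the 50-base windows of Hba-a2 also occurred in Hba-a1. Those of Hbb-bs and Hbb-bt were identical at 93.1% of 621 aligned bases, and 65.8% of the windows of Hbb-bs occurred in Hbb-bt. How the authors' counting shared reads between such copies is not given in the sources used here, nor whether reads that fit both were kept, so the split within each pair is uncertain. Alas2 is overlapped by Apex2, a DNA repair gene on the opposite strand. All 311 bases of the last Alas2 exon, 12.9% of its 2403 exon bases, lie in an Apex2 exon, and without strand the reads there cannot be told apart.

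Stretches before the starts of these genes are shown as background, and their part in the levels of these libraries was not tested. They were taken from the RefSeq promoter table (GRCm38.p6), in which all 5 genes had an entry, and were trimmed so that no annotated exon is included. That of Hbb-bs ends at the RefSeq start but lies within the GENCODE span of the gene, which begins farther upstream. Those of Hba-a2, Hbb-bt and Alas2 end 3, 73 and 42 bases before the RefSeq start. Motifs outside the printed bases are not shown, so a motif missing from a stretch can still lie in the promoter. Capitals mark 4 motifs, searched on either strand. The first is CACCC, the core bound by KLF1-type factors. The second is CCAAT, a promoter element of many genes. The third is GATAA, bound by GATA1-type factors. The last is TATAA, the core of the TATA box.
Hba-a2 (chr11:32296369-32296488, plus strand): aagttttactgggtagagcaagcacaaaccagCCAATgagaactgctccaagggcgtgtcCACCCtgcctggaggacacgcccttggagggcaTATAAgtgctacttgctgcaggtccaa
Hbb-bs (chr7:103827929-103828011, minus strand): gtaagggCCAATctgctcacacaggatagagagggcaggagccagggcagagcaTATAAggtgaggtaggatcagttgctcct
Hbb-bt (chr7:103813997-103814116, minus strand): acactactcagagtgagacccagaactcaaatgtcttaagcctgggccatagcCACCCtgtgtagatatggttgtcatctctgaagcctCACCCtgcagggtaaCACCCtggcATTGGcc
Alas2 (chrX:150547255-150547374, plus strand): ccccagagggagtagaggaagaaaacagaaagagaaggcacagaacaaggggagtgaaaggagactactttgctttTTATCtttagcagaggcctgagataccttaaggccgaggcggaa
The Hba-a1 window is not printed, since 247 of the 250 bases before its RefSeq start were the same as before Hba-a2. The Hbb-bs and Hbb-bt windows were 74.3% identical over 241 aligned bases. Over the full 250 bases before the RefSeq start, each of the 4 globin genes held all 4 motifs, which 0.968% of the 32851 promoters in the table did. Alas2 held all of them but CCAAT. Taken singly, CACCC occurred in 52.0% of all promoters, CCAAT in 33.8%, GATAA in 22.6% and TATAA in 22.8%. A match describes the letters and is not evidence of binding.

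The 238 libraries held a median of 8.44 M counts (M stands for mega), the smallest 0.606 M and the largest 32.4 M, and 6 were under 2 M. Markers of the labelled tissues were highest where the label placed them for liver (Alb), cerebellum (Pcp2), olfactory bulb (Doc2g), hypothalamus (Hcrt), caudate putamen (Adora2a) and choroid plexus (Kcne2). The check of Tcf7l2, a marker of thalamus, did not tell thalamus from hypothalamus. Its median was at least 66.9 CPM in both and at most 63.7 in any other tissue. Kcne2 had a median of 45.1 CPM (counts scaled to a library total of 1 M) in choroid plexus but was 1.37 in 1 of those libraries, and its median in corpus callosum was 27.02. The lowest hypothalamus library held 0.168 CPM of Hcrt. Prox1, Hoxb5 and Mog did not have their highest median in hippocampus, medulla and corpus callosum, respectively.

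Haemoglobin transcripts were a small part of each library and varied widely between tissues and mice. Summed over the 4 genes, their level in the 229 brain libraries ran from 0 to 256.97 CPM with a median of 7.13. The median brain library rested on 54 haemoglobin counts, and 18 libraries had at most 3. In liver the sum ran from 44.3 to 214.5 CPM, with a median of 87.5 over 9 libraries and 198 counts in the least covered library. The library with the highest level, the olfactory bulb of YMP mouse 81, gave haemoglobin 0.0257% of its counts.

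The order of the brain regions by median level put the olfactory bulb first, at 55.9 CPM (range 19.0 to 256.97, n = 16). Cerebellum followed at 19.4, medulla at 17.7, visual cortex at 11.8, motor cortex at 10.2, pons at 8.80 and entorhinal cortex at 8.02. The remaining 8 regions lay between 4.25 in anterior hippocampus and 1.81 in hypothalamus. Caudate putamen (3.5995), thalamus (3.10), SVZ (2.64), posterior hippocampus (2.59), choroid plexus (2.47) and corpus callosum (2.19) fell between those ends. Most neighbours in this order did not separate within mice. Medulla was above visual cortex in 8 of the 15 mice with both regions, and visual cortex above motor cortex in 7 of 15. Olfactory bulb was above cerebellum in 11 of 15 mice, and entorhinal cortex above anterior hippocampus in 12 of 15.

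**Figure D1:**
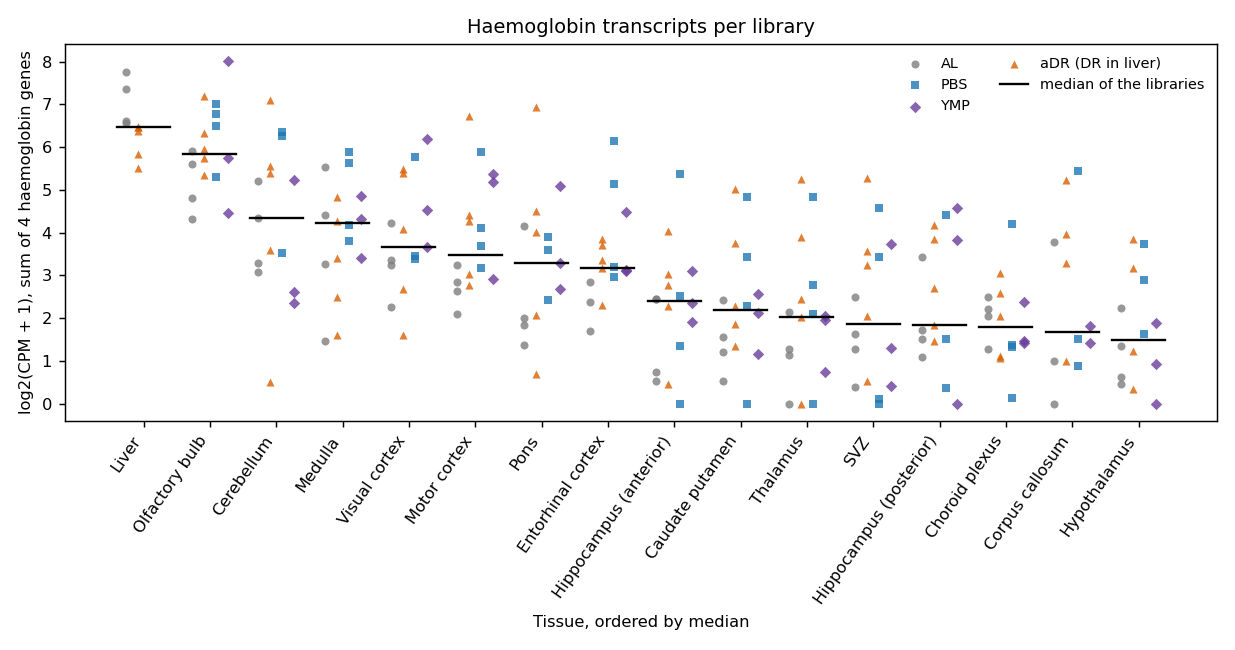
Summed level of the 4 haemoglobin genes in each of 238 libraries, as log2(CPM + 1), by tissue on the x axis in the order of the medians (black lines), with treatment by colour and shape. Liver and olfactory bulb stand highest, and the spread between libraries of one region and treatment differs, with a median of 7.60-fold between the highest and the lowest where none is at 0.

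The olfactory bulb stood apart within animals. In 16 of 16 mice its haemoglobin level was above the median of that mouse's other regions, by a median of 10.4-fold, and in 10 mice it was the highest region of all. Motor cortex was above that median in 14 of 16 mice and visual cortex in 13 of 15. Thalamus was above it in 1 of 16, and hypothalamus and choroid plexus in 2 of 14 and 2 of 16. All 5 genes differed between brain regions by the edgeR F test, with an adjusted p of at most 2.54e-08 for the globin genes and 0.00149 for Alas2 in the diet experiment. This test had no mouse block, so regions of the same mouse counted as independent and its p-values are not at the level of mice. It called 99.7% of all genes in the diet experiment and 99.1% in the plasma experiment, so a call in it does not single these genes out.

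Markers of other blood and vessel cells were summed in the same libraries. The neutrophil list (9 genes) had its highest brain median in the olfactory bulb too, at 46.0 CPM, followed by 11.97 in cerebellum, 9.89 in medulla and 9.496 in visual cortex. It was 0.155 in thalamus and 0.177 in caudate putamen. The platelet list (8 genes) stayed between 2.70 in cerebellum and 7.15 in olfactory bulb. The endothelial list (10 genes) lay between 220 in entorhinal cortex and 349 in medulla, a narrower range than that of haemoglobin. The part of any of these cells in the regional order was not tested.

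Alas2 was counted even where the globin genes were not. Its level in brain ran from 0.447 to 9.80 CPM with a median of 2.67, and no brain library was at 0. Per kilobase of exon, the median brain level was 1.11 CPM for Alas2, 3.50 for Hba-a1, 2.53 for Hbb-bs, 1.63 for Hba-a2 and 1.29 for Hbb-bt. In 9 brain libraries all 4 globin genes had 0 counts, which allows a summed level of up to 0.388 to 0.834 CPM, 3 counts of the library total. In those 9 libraries Alas2 still had 2 to 19 counts, or 0.447 to 3.53 CPM. Apex2 had a median of 1.06 CPM per kilobase in brain, close to the level of Alas2, and 0.745 in liver, where Alas2 had 3.18. The hypothalamus, lowest of the regions in haemoglobin, had Alas2 medians of 3.59 CPM in AL, 4.14 in aDR, 3.79 in PBS and 2.37 in YMP mice.

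**Figure D2:**
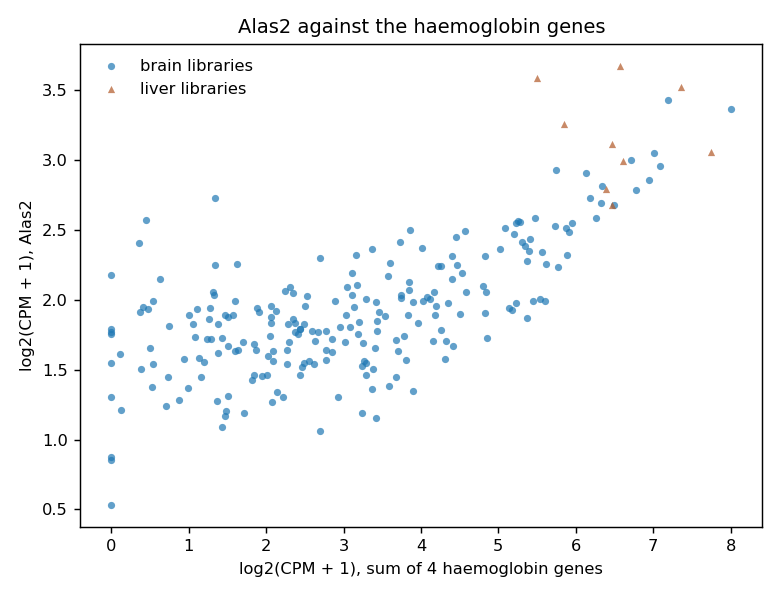
Alas2 level against the summed haemoglobin level in each of 229 brain and 9 liver libraries, both as log2(CPM + 1). Alas2 keeps a floor above 0 at the left, where the globin genes have no counts, and tends to be higher toward the right.

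Within groups the 4 globin genes varied together. Each library's deviation from the mean of its region and treatment was compared between genes by Spearman's rho. Over the 131 diet brain libraries, rho between the 4 globin genes lay between 0.893 and 0.912, and over the 98 plasma libraries between 0.887 and 0.935. Alas2 followed them less closely, with rho of 0.561 with the haemoglobin sum in the diet and 0.710 in the plasma experiment. These points share library, mouse and depth, and the copies are alike in sequence, so the values describe these libraries only.

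The 5 genes outside the set whose deviations were most like those of the haemoglobin sum were S100a8, Ltf, S100a9, Ngp and Retnlg, out of 15513 ranked genes. All 5 are made by neutrophils: S100a8 and S100a9 form calprotectin, and Ltf and Ngp are stored in granules. Their mean rho over both experiments was 0.513, 0.487, 0.467, 0.462 and 0.444, against a median of -0.011 (diet) and -0.0079 (plasma) over all genes. They were sparse: S100a8 had no count in 61 and Ltf in 102 of the 229 brain libraries. Among the other erythroid genes, Slc4a1, the anion exchanger of the red cell membrane, ranked 22 with a mean rho of 0.347, although it had no count in 141 libraries. Slc25a37, the mitochondrial iron importer, ranked 297. The endothelial gene Cldn5 had a mean rho of 0.184 and the platelet gene Pf4 0.0875.

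The share of each copy in its pair was taken over pooled counts. Hba-a1 took 72.2% of the 18682 alpha counts over all brain libraries (exact 95% interval 71.6 to 72.9, counting error only) and 70.9% of the 4235 alpha counts in liver (69.5 to 72.3). Hbb-bt took 27.5% of the 14970 beta counts in brain (26.8 to 28.2) but 18.2% of the 3287 beta counts in liver (16.9 to 19.5). The lower share of Hbb-bt in liver held in 9 of 9 females: their livers ranged from 13.9% to 20.9% and their pooled brain regions from 23.8% to 31.2%. Within brain the share also varied by region, from 22.4% in olfactory bulb (21.3 to 23.6) to 32.9% in medulla (30.5 to 35.5) and 33.3% in SVZ (29.0 to 37.9). The pattern was picked out after its values were seen and was not tested. Alpha genes together took 55.5% of haemoglobin counts in brain and 56.3% in liver.

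Mice of one group differed widely. Among the 60 groups of brain libraries of the same region and treatment, 51 had no library at 0. In those 51, the highest library was a median of 7.60-fold above the lowest, and 21 groups exceeded 10-fold. In cerebellum the aDR mice ranged from 0.414 CPM in mouse 65 to 135.5 in mouse 62, from 5 and 659 counts. PBS mouse 84 was the highest of its experiment in 8 regions and the lowest in none, with a median over regions of 34.2 CPM. PBS mouse 76 was the lowest in 7, with a median of 0.837, yet its olfactory bulb held 108.8. Among the females, AL mouse 63 was lowest in 8 regions and aDR mouse 65 in 5, and aDR mouse 62 was highest in 6. Mouse explained 22.5% to 35.3% of the spread of log2 CPM of the globin genes in the diet experiment and 23.4% to 28.2% in the plasma experiment. The median over all genes was 2.97% and 3.64%. For Alas2 the mouse share was 20.8% and 16.3%. The fit held region and mouse but no treatment term, so these shares include any difference between treatments and are not spread within groups alone.

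Dietary restriction was compared with free feeding over the brain regions with 1 value per mouse for each gene, the mouse term of log2 CPM fitted on region and mouse. All 5 genes were estimated higher in aDR mice, and none passed the limma test, which called 0.922% of the 15616 genes tested at an adjusted p under 0.05. For Hba-a1 the values were 2.08, 2.89, 3.06, -0.37 and 2.15 in aDR mice 61, 62, 64, 65 and 67. They were 0.21, 1.34, 0.89 and 0.86 in AL mice 63, 66, 68 and 69. Mice 61, 62, 64 and 67 thus stood above every AL mouse, and mouse 65 stood below every one. The difference was 1.13 on the log2 scale (SE 0.64, 95% interval -0.37 to 2.64, limma adjusted p = 0.427). Hbb-bs had aDR values of 1.42, 2.07, 2.44, -0.51 and 1.68 and AL values of -0.04, 0.97, 0.17 and 0.55. It differed by 1.01 (SE 0.54, limma adjusted p = 0.400). Hba-a2 and Hbb-bt showed the same pattern, with 4 aDR values above and that of mouse 65 below all AL values. Their differences were 0.75 (SE 0.43) and 0.93 (SE 0.47), with limma adjusted p of 0.434 and 0.374. Without mouse 65 the differences were 1.72 for Hba-a1, 1.12 for Hba-a2, 1.49 for Hbb-bs and 1.36 for Hbb-bt, with limma adjusted p from 0.0699 to 0.141. Mouse 65 was picked for its low values, and leaving it out by itself raises the differences. No conclusion is drawn from that fit.

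**Figure D3:**
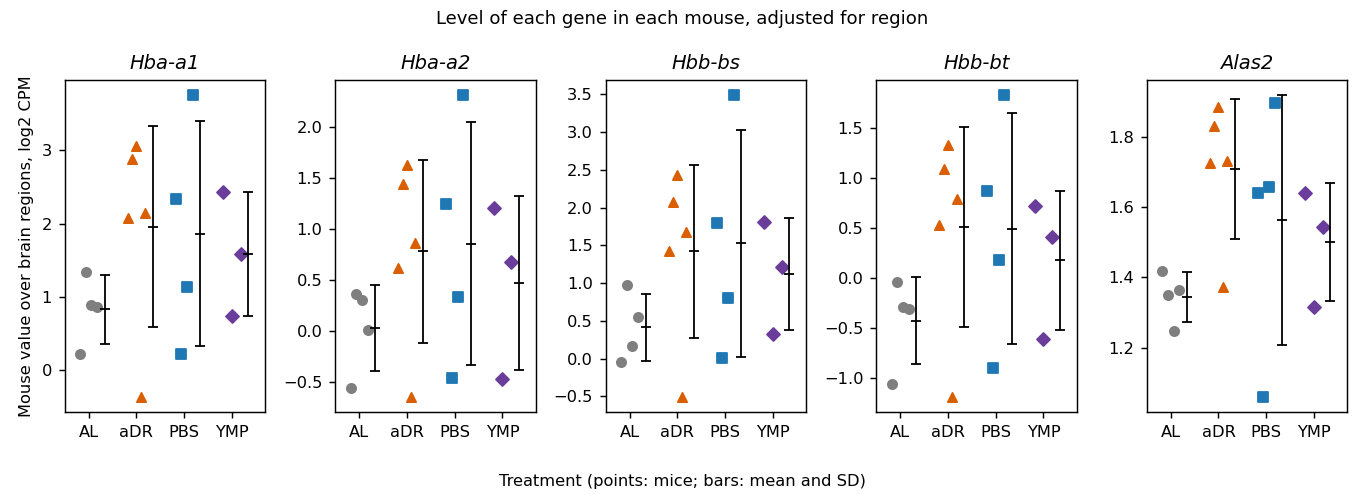
Level of each gene in each of 16 mice over the brain regions, as the mouse term of log2 CPM, by treatment, with the mean and SD of each group as bars. In the 4 globin panels aDR mouse 65 lies below the other 4 aDR mice by more than 1 log2 unit, and PBS mouse 84 is the highest PBS mouse.

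Alas2 had the smallest difference and the smallest error. Its aDR values were 1.72, 1.83, 1.89, 1.37 and 1.73, and its AL values 1.42, 1.35, 1.25 and 1.37. The aDR mice were higher by 0.36 (SE 0.095, unadjusted p = 0.00392, limma adjusted p = 0.116), which did not pass the threshold, and the groups overlapped through mouse 65. With all libraries in limma-voom and the mouse as a block, the difference was 0.34 and the adjusted p 0.00808, in a fit that called 9.44% of all genes. Without mouse 65 the limma difference of Alas2 was 0.45 with a limma adjusted p of 0.0228. That mouse had the lowest Alas2 value of the aDR group, and leaving it out by itself raises the difference. This call is therefore not read as a result. Calls over all genes with 1 mouse fewer are given below as a range. Apex2, which overlaps the last Alas2 exon, differed by -0.01 (SE 0.05). When all libraries were treated as independent in edgeR with no block, all 5 genes were called, as were 16.2% of all genes.

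Within single regions, 56 of 75 gene and region pairs passed the count filter, and none of the 56 was called by edgeR, in which 0.0525% of all pairs were. At an unadjusted p under 0.05 there were 16 by edgeR and 18 by DESeq2, which called 0. DESeq2 gave no adjusted p for some pairs, among them all 5 genes in olfactory bulb and medulla, so these could not be called. One of them was Hba-a2 in olfactory bulb, with a DESeq2 unadjusted p of 0.00223. The filter keeps a pair that is high in 1 treatment only: Hbb-bt in corpus callosum had 0, 8 and 1 counts in AL and 12, 39, 0 and 40 in aDR libraries. Nothing is therefore read from the direction of the globin pairs that passed. Alas2 passed in all 15 regions, and its aDR estimate was higher in 14 of them, against 51% of all gene and region pairs. It was higher at an unadjusted p under 0.05 in 4 regions, against 3.01% of all pairs. The mice are the same in every region, so these regions are not independent. The brain pair with the smallest p was Hba-a1 in motor cortex. It held 1.14, 2.64, 1.91 and 1.70 CPM in AL mice 63, 66, 68 and 69, and 7.23, 45.1, 9.18, 1.79 and 2.80 in aDR mice 61, 62, 64, 65 and 67. The aDR libraries were above all AL libraries except that of mouse 65, which lay among them. The aDR estimate was higher by 2.76 (SE 0.78, edgeR adjusted p = 0.201), in a region where 0.251% of genes were called. In medulla the estimates of the 4 globin genes were below 0, from -1.07 to -0.80, with none called. Of the 75 pairs, 19 fell below the filter, 8 of them of Hbb-bt, 7 of Hba-a2, 3 of Hbb-bs and 1 of Hba-a1. The treatment by region F test called none of the 5 genes in the diet experiment (adjusted p = 1 for each, unadjusted p from 0.331 to 0.745) and 0.0128% of all genes.

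**Figure D4:**
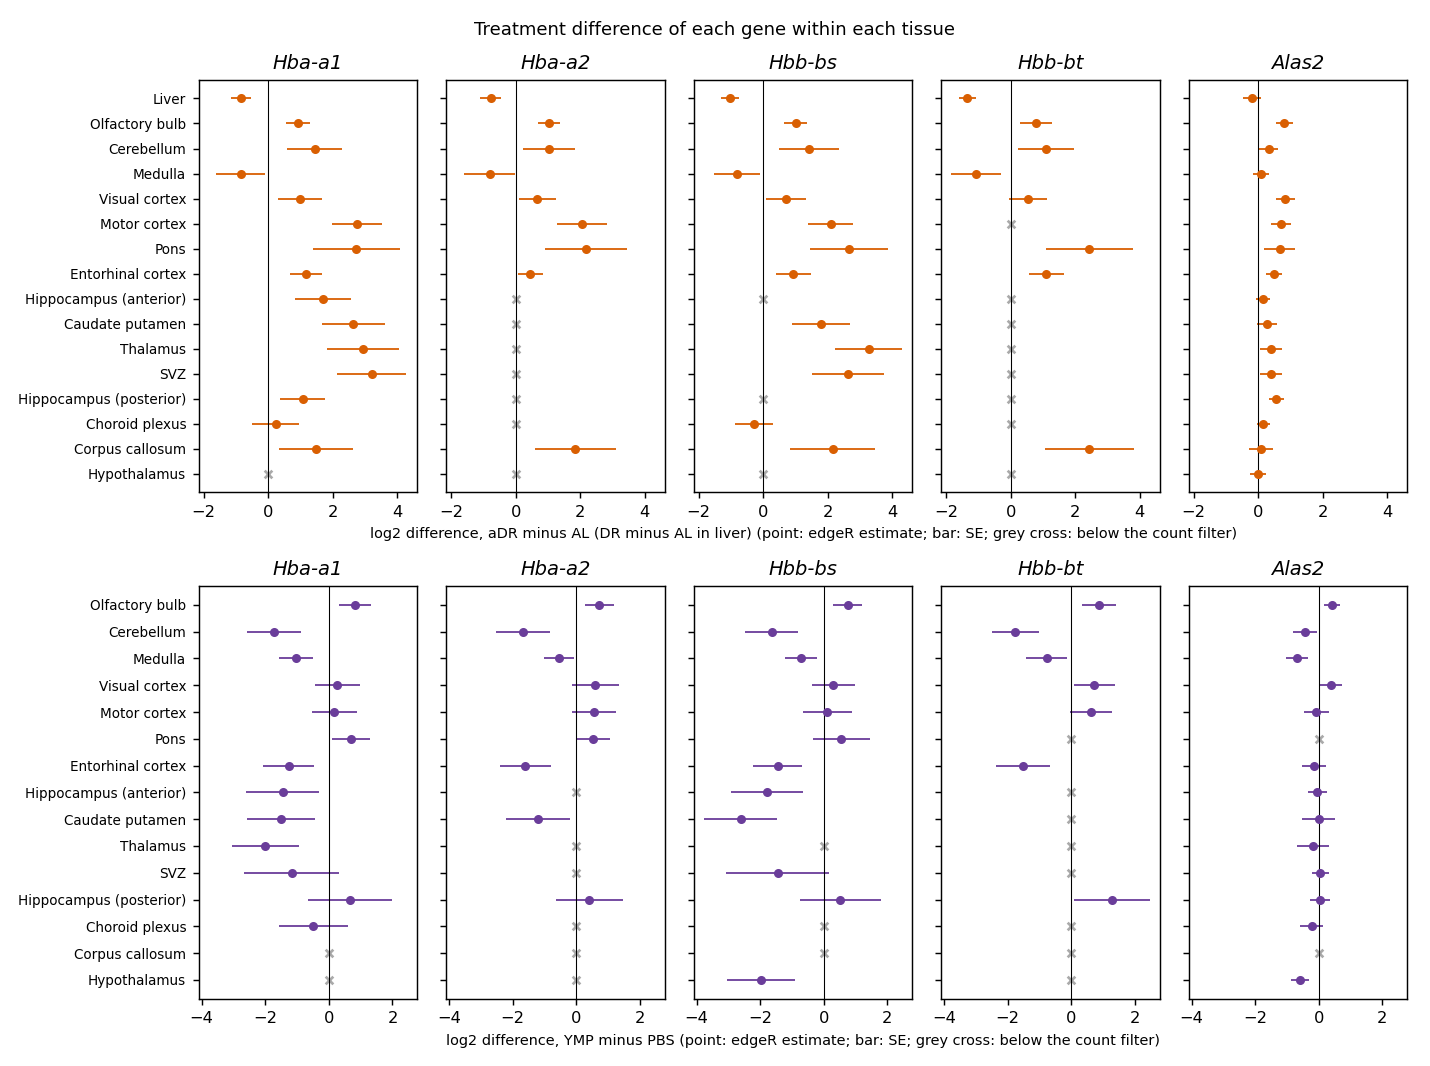
Treatment difference of each gene in each tissue on the log2 scale, as the edgeR estimate with its SE, for diet (upper panels) and plasma (lower panels), with tissues in the order of haemoglobin level and grey crosses for pairs below the count filter. Liver estimates lie to the left of 0, Alas2 estimates with diet lie at or to the right of 0 in brain, and plasma estimates fall on both sides.

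In liver the estimates of all 5 genes were below 0. The haemoglobin sum was 94.3, 96.7, 214.5 and 162.9 CPM in AL mice 63, 66, 68 and 69, and 87.4, 87.5, 82.7, 56.5 and 44.3 in DR mice 61, 62, 64, 65 and 67. Every DR liver was thus below every AL liver. Hbb-bt was 9.54, 7.78, 18.5 and 14.0 CPM in the AL livers and 5.82, 4.73, 4.54, 5.14 and 3.68 in the DR livers, again without overlap. The DR libraries were all below the AL libraries for 1.86% of the 11815 genes tested. The edgeR difference of Hbb-bt was -1.34 (SE 0.26, unadjusted p = 0.000286, adjusted p = 0.0758), in a comparison that called 0.22% of genes. Hbb-bs was 37.6, 30.97, 72.5 and 65.1 CPM in AL and 35.9, 22.6, 25.0, 19.4 and 18.2 in DR livers, overlapping through AL mouse 66 and DR mouse 61. It differed by -1.04 (SE 0.28, edgeR adjusted p = 0.204).

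**Figure D5:**
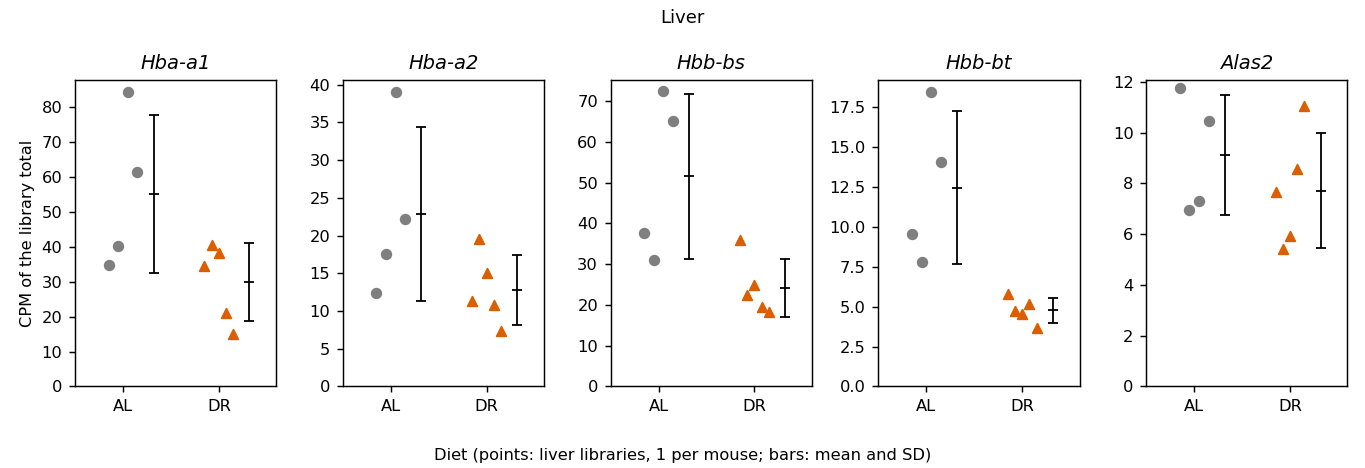
Level of each gene in each of 9 liver libraries in CPM, by diet, with the mean and SD of each group as bars. The Hbb-bt panel has no overlap between AL and DR livers, and the Alas2 panel has overlapping groups.

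The alpha genes were lower in DR livers by estimates of -0.84 (SE 0.32) for Hba-a1 and -0.77 (SE 0.33) for Hba-a2, with edgeR adjusted p of 0.415 and 0.496. Hba-a1 ranged from 34.7 to 84.5 CPM in AL and from 15.0 to 40.6 in DR livers. So 4 of the 5 genes had an unadjusted p under 0.05 and a lower estimate, against 4.6% of all genes, but none was called by edgeR. DESeq2 called Hbb-bs (adjusted p = 0.0400) and Hbb-bt (DESeq2 adjusted p = 0.000928), in a fit that called 1.9% of genes. Alas2 was 11.8, 6.96, 7.32 and 10.47 CPM in AL and 7.64, 5.40, 5.93, 8.57 and 11.04 in DR livers, with a difference of -0.18 (SE 0.28, edgeR adjusted p = 0.932). Marker sums of the same livers overlapped between diets. They ran from 7.21 to 58.0 CPM in AL and 5.40 to 25.1 in DR for neutrophils, and from 19.98 to 38.1 and 16.5 to 40.5 for platelets. Endothelial sums ran from 236 to 343 and from 218 to 382, and lymphocyte sums from 19.6 to 28.7 and from 11.9 to 26.8. The estimates of all 5 lymphocyte genes and both neutrophil genes tested were below 0, with medians of -0.32 and -0.74 and none called. The part of blood volume or of these cells in the liver result was not tested.

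The liver difference was set against the brain difference in the same 9 females, by subtracting each mouse's brain value from its liver value. The diet difference in liver was below that in brain by 1.99 log2 units for Hba-a1 (value -1.99, SE 0.51), and the values were -1.50 (SE 0.36) for Hba-a2, -2.01 (SE 0.54) for Hbb-bs and -2.19 (SE 0.50) for Hbb-bt. Unadjusted p ran from 0.00116 to 0.00346, and the limma adjusted p from 0.182 to 0.274, so none was called, against 0.0793% of all genes. For Alas2 the difference was -0.58 (SE 0.30, limma adjusted p = 0.698). Liver levels were above brain levels in 9 of 9 mice for each of the 5 genes, by 4.81 log2 units for Hba-a1, 4.54 for Hba-a2, 5.11 for Hbb-bs, 3.82 for Hbb-bt and 2.47 for Alas2. That comparison called 86% of all genes. Its size depends on scaling, since the liver median of the haemoglobin sum was 87.5 CPM of plain totals and 163.9 with TMM-scaled library sizes.

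None of the 5 genes passed the test between plasma and saline injection. Over the brain regions, Hba-a1 values were 2.44, 0.73 and 1.59 in YMP mice 73, 77 and 81 and 2.34, 0.22, 1.14 and 3.76 in PBS mice 72, 76, 80 and 84. The YMP mice all lay inside the PBS range. The differences were -0.27 (SE 0.83) for Hba-a1, -0.39 (SE 0.68) for Hba-a2, -0.41 (SE 0.80) for Hbb-bs, -0.32 (SE 0.63) for Hbb-bt and -0.06 (SE 0.19) for Alas2. The limma adjusted p was at least 0.890, and 0% of the 15768 genes were called, with 1275 at an unadjusted p under 0.05. Intervals were wide, from -2.41 to 1.86 for Hba-a1 and from -0.55 to 0.43 for Alas2, so differences within those bounds could not be told from 0 with these mice. Without PBS mouse 84, all 5 estimates were above 0, at 0.35 for Hba-a1 and 0.24 for Hbb-bs.

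Within regions, 54 of 75 plasma pairs passed the filter, 31 with a lower estimate in YMP mice, against 50.9% of all pairs. Pairs high in 1 treatment only are again among them, so nothing is read from that count. None was called by edgeR, against 0.0127% of all pairs. At an unadjusted p under 0.05, 2 were lower, against 3.46% of all pairs, and DESeq2 had 0 at that level. They were Hbb-bt in cerebellum (-1.77, SE 0.74, edgeR adjusted p = 0.463) and Hbb-bs in caudate putamen (-2.62, SE 1.16, edgeR adjusted p = 0.489). The second had 8, 0 and 7 counts in YMP and 41, 0, 18 and 98 in PBS libraries, and passed the filter through the PBS libraries. Cerebellum held 10.55, 80.1 and 75.8 CPM of haemoglobin in PBS mice 72, 80 and 84, and 36.3, 5.14 and 4.09 in YMP mice 73, 77 and 81. Alas2 in hypothalamus came next (-0.59, SE 0.28, edgeR adjusted p = 0.998), with 2.99 to 4.34 CPM in PBS and 1.98 to 2.85 in YMP libraries. In the olfactory bulb the YMP libraries held 52.8, 20.9 and 256.97 CPM and the PBS libraries 89.0, 108.8, 38.4 and 128.3. Leaving out YMP mouse 77 made the 4 globin genes higher there by 1.27 to 1.46 log2 units, with edgeR adjusted p between 0.0237 and 0.0478, for 2 YMP against 4 PBS libraries, in a fit that called 194 of 14291 genes. Those calls rest on the library of mouse 81, at 256.97 CPM. The other YMP library, of mouse 73 at 52.8 CPM, lay below those of PBS mice 72, 76 and 84. The treatment by region F test called none of the 5 genes (adjusted p = 1 for each) and 0.824% of all genes in the plasma experiment.

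None of the other globins passed the test with diet or plasma. The embryonic genes Hba-x and Hbb-bh1 had no count in any of the 238 libraries, and Hbb-y had none in 200 of 229 brain libraries and in all 9 livers. Cygb, cytoglobin of fibroblast-like cells and some neurons, had a mean of 86.6 CPM in brain, and Ngb, the neuronal globin, 19.96. Of the 5 list genes tested across brain regions, none was called in either experiment. Cygb differed by 0.04 (SE 0.05) with diet and 0.06 (SE 0.08) with plasma.

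None of 8 other genes of haem synthesis was called across brain regions in either experiment. Fech, which inserts iron, differed by 0.03 (SE 0.03) with diet, and Cpox, coproporphyrinogen oxidase, by 0.05 (SE 0.04). In liver 1 of 8 was called, against 0.22% of all genes. It was Alas1, the form of the first enzyme used outside red cells. It was at 203.8 to 378.0 CPM in AL and 525.5 to 693.9 in DR livers and rose by 1.298 (SE 0.20, edgeR adjusted p = 0.0308).

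Of the other erythroid genes, 15 of 16 had a row, and 7 were tested across brain regions with diet, 8 with plasma and 5 in liver, with none called. The most abundant in brain were Sptb, the erythroid form of beta spectrin, and Bpgm, which makes bisphosphoglycerate, with means of 67.1 and 65.6 CPM in brain. They differed by -0.02 (SE 0.06) and -0.01 (SE 0.04) with diet. Rhag had no count in 173 and Gata1 in 212 of 229 brain libraries, and both had none in liver, as had Ank1 and Trim58. Klf1, an erythroid transcription factor, had none in 89 brain libraries but was counted in all 9 livers, with a median of 5.77 CPM. Slc25a37 was at -0.18 with diet (SE 0.05, unadjusted p = 0.00369, limma adjusted p = 0.114).

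Genes that clear haem and haemoglobin did not pass the test in any of the 3 comparisons, of 8 tested in brain and 9 in liver. Hmox2, the constitutive haem oxygenase, differed by 0.07 (SE 0.03) across brain regions with diet and Lrp1, a receptor for haemopexin bound to haem, by -0.06 (SE 0.03). Slc40a1, the iron exporter ferroportin, was at -0.16 (SE 0.04, limma adjusted p = 0.135).

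Lists of other blood and vessel cells were read beside these results. Of the neutrophil list, 7 of 9 genes were tested across brain regions and none was called, with medians of 0.26 in diet and 0.24 in plasma and all 7 estimates above 0 in each. The medians over all genes were -0.01 and 0.00. The neutrophil sum per mouse, as the median over regions, ran from 0.636 to 3.19 CPM in AL and from 0.328 to 10.47 in aDR mice. None of 3 platelet genes tested with diet and 5 with plasma was called, nor of 2 lymphocyte genes in each. Of the endothelial list, 4 of 10 were called lower with diet and none higher, where 62 of all 15616 genes were called lower and 82 higher. They were Kdr (-0.56, SE 0.06), Cldn5 (-0.48, SE 0.08), Tie1 (-0.26, SE 0.04) and Flt1 (-0.26, SE 0.04), with limma adjusted p from 0.00970 to 0.0402. The list did not move as a whole, since 2 of the 10 estimates were above 0. Slco1a4, second to Flt1 in brain CPM, was estimated higher by 0.13 (SE 0.06, limma unadjusted p = 0.0410, adjusted p = 0.288). None of 6 mural genes was called. The choroid plexus list had 7 of 8 genes at an unadjusted p under 0.05 and lower with plasma, as had 884 of all 15768 genes, but none called, and a median of -1.18. The part of these lists in the haemoglobin values was not tested.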

How the data were processed

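The authors deposited 1 table of whole-number read counts per gene. Per the labels, RNA from homogenised tissue was isolated on RNeasy columns, amplified by Smart-Seq2 and tagmented with Nextera XT, without strand. Per the submitters' processing notes, Trim Galore 0.3.7, STAR 2.5.3a, DESeq2 and the build GRCm38 were used. The counting tool and annotation are not given in the sources used here. All 238 columns matched a label, and 0 were left unused.

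The 5 genes and all lists were chosen with earlier results of these data known. CPM were computed here from plain library totals. Comparisons within a tissue used edgeR 4.0.16 (R 4.3.3; TMM, filterByExpr set to at least 10 counts and a total of at least 15, quasi-likelihood test). Comparisons of treatments across regions used limma 3.58.1 on 1 value per mouse (log2 CPM, prior count 2). The F tests between regions and of treatment by region used edgeR on all brain libraries of an experiment. They had no mouse block, so libraries of the same mouse counted as independent. DESeq2 1.42.0 was an alternative. P-values were adjusted over all genes by Benjamini-Hochberg, with a threshold of 0.05. Intervals of differences (95%) use the limma estimate and SE, with a t distribution on the number of mice minus 2 degrees of freedom. The limma p-values rest on more degrees of freedom, so the intervals are somewhat wider than those p-values imply. Intervals of shares are exact binomial. The tests were tested on simulated data. Named gene and region pairs were those called, otherwise the 3 smallest p per experiment. List genes named were those called and the 2 of highest brain CPM; others named were chosen after their values were seen.

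The mouse number belongs to a single animal wherever it occurs; regions are paired by it, treatments are not. Deviations of libraries of the same mouse correlated at a mean of 0.040 in the diet and 0.072 in the plasma experiment, against -0.0049 and -0.012 for different mice. Each mouse is a separate animal of its group. Reads carry no molecular identifiers, so limits from counts cover counting error only.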

Additional observations from a re-analysis of the deposited data

Results flagged for a closer look

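The brain value of Hba-a1 in aDR mouse 65 stood apart from the other aDR mice, at -0.37 against 2.08 to 3.06 (log2 CPM over regions, n = 5). Its gap to the nearest mouse was 0.713 of the group's range. This was 1 of 62 groups of mice or libraries examined for such a gap, where chance gives about 3.1.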

How the results depend on the processing

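With DESeq2, 2 gene and tissue pairs were called in the diet experiment (0 by edgeR), Hbb-bs and Hbb-bt in liver, and with no filter on low counts 1, Hba-a1 in motor cortex (2.76, edgeR adjusted p = 0.0477). Across brain regions with diet, Alas2 was called once voom took the mouse for a replicate block (0.34, adjusted p = 0.00808), where 1474 genes were called against 144. With no replicate block in edgeR, all 5 genes were called, at 1.57 for Hba-a1, 1.23 for Hba-a2, 1.41 for Hbb-bs, 1.33 for Hbb-bt and 0.40 for Alas2, with 2527 genes called. In the plasma experiment 487 and 2114 genes were called in those fits against 0. The block turned the plasma estimates of Hba-a2 (0.013), Hbb-bs (0.11), Hbb-bt (0.091) and Alas2 (0.042) above 0, and called none of the 5. The cause of these differences was not tested.

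When 1 mouse was left out, the diet estimate of Alas2 ran from 0.32 to 0.45 and was called only without aDR mouse 65. Plasma estimates were reversed without YMP mouse 77 (Hba-a1 0.15, Hba-a2 0.090, Hbb-bt 0.086, Alas2 0.033) and without PBS mouse 84 (Hba-a1 0.35, Hba-a2 0.090, Hbb-bs 0.24, Hbb-bt 0.11, Alas2 0.042). Over all mice left out, the plasma estimates ran from -0.82 to 0.35 for Hba-a1, -0.83 to 0.090 for Hba-a2, -0.91 to 0.24 for Hbb-bs, -0.78 to 0.11 for Hbb-bt and -0.23 to 0.042 for Alas2. Plasma pairs called ranged from 0 to 4, the 4 globin genes in olfactory bulb without YMP mouse 77. Over all genes, calls with 1 mouse fewer ranged from 14 to 163 across brain regions with diet (144 with all mice, 14 without AL mouse 66) and from 0 to 1 with plasma (0). In the treatment by region test they ranged from 0 to 3 with diet (2) and from 3 to 155 with plasma (130 with all mice, 3 without YMP mouse 81), and in the liver against brain test from 0 to 26 (9 with all mice, 26 without aDR mouse 61). Of the 5 genes, none changed its call in the region, interaction or liver against brain tests under any setting run. The median liver haemoglobin level was 163.9 CPM with TMM-scaled sizes against 87.5. The medians of the 15 brain regions moved by less than 1 SD. That mark is loose, since the SD over libraries was above the median in regions such as thalamus (median 3.10 CPM, SD 10.7). Depth also limited the globin genes, since pairs below the count filter were not tested.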
